A study of Cuscuta campestris with 9 samples.

Results

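Untreated RNA of dodder haustoria was compared with the same RNA after RppH, an enzyme that turns a capped or triphosphate 5′ end into a monophosphate. The comparison took in 324 of the 716 loci in the authors' table, namely every locus with at least 10 counts summed over the 6 libraries concerned. Counts of all listed pre-tRNA forms of a tRNA gene were added up, and each snRNA or microRNA interval stood for itself. The 324 loci were 18 of 94 spliceosomal snRNA loci, 61 of 126 primary transcripts of microRNAs and 245 of 496 tRNA genes. The authors list the snRNA loci under the category of capped snRNA. The other 392 loci fell below the minimum.

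The plant was Cuscuta campestris, wild-type strain "Dotti", a leafless parasite that taps its host through haustoria. Haustoria were made without a host, by pressing shoot tips grown on beets against 3% agar under far-red light for 4 days. Total RNA came from 3 RNA samples, each of which gave an untreated and an RppH library, so that equal replicate numbers mark shared RNA. Nothing in the labels ties the 3 RNA samples to different plant batches. The p-values therefore measure only the spread between these libraries, which may be technical. The RNA came from whole pieces of tissue, so that a level cannot be split into the number of cells of a type and the RNA per cell, and both treatments of an RNA sample share that make-up.

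The libraries were built by a ligation that needs a 5′ monophosphate and read RNAs of about 10 to 400 nt over their full length. RNAs made by RNA polymerase II receive a cap, among them most spliceosomal snRNAs and, in plants generally, the primary transcripts of microRNAs. RNA polymerase III leaves a triphosphate on a new pre-tRNA, and RNase P then removes the 5′ leader and leaves a monophosphate. An RNA that keeps its cap or triphosphate is therefore ligated only after RppH, whereas a trimmed or cleaved RNA is ligated in either library. Cuscuta campestris is known for microRNAs that enter the host and act on host messenger RNAs.

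Library totals were 41321715, 46034864 and 26426312 for untreated replicates 1 to 3, and 27459027, 24974484 and 33362911 for RppH replicates 1 to 3. The listed loci held 630 to 1011 counts in untreated libraries and 13578 to 34529 counts after RppH. A level is given as TPM, which in this table is the count scaled to the library total with no correction for length, so that 1 count is worth 0.0217 to 0.0400 TPM. Untreated levels of most loci thus rest on very few counts.

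All 3 RNA classes were higher after RppH, snRNA by far the most and pre-tRNA the least. Over the 324 loci, snRNA stood at 0.992, 0.282 and 0.681 TPM in untreated replicates 1 to 3 and at 446, 311 and 603 TPM in the RppH replicates. MicroRNA transcripts went from 1.43, 0.587 and 1.10 TPM to 75.0, 57.7 and 136 TPM. Pre-tRNA went from 21.2, 12.6 and 21.3 TPM to 228, 164 and 279 TPM. The lowest RppH library lay above the highest untreated library in each class, and replicate 2 was the lowest of both groups in each class. RppH replicate 3 was the highest in each class, and RppH replicate 2 held the fewest listed counts of its group. Among untreated libraries replicate 3 held the fewest, with 630 against 645 in replicate 2.

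The ratio of RppH to untreated mean was 695 for snRNA, 86.5 for microRNA transcripts and 12.2 for pre-tRNA. By RNA sample it was 449, 1101 and 886 for snRNA, 52.5, 98.4 and 124 for microRNA, and 10.7, 13.1 and 13.1 for pre-tRNA. The exact two-sided permutation p was 0.1 for each class and 0.1 after Benjamini-Hochberg adjustment over the 3 classes, the smallest that 3 against 3 libraries allow. The rise was seen in 3 of 3 RNA samples for each class.

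The make-up of the libraries turned over. Pre-tRNA held 91.9% ± 1.92 of the counts at the 324 loci in untreated libraries and 29.6% ± 1.91 after RppH (SD, n = 3 each). The share of snRNA went from 3.08% ± 1.05 to 59.0% ± 0.632, and that of microRNA transcripts from 5.04% ± 0.878 to 11.4% ± 1.77 (SD, n = 3 each). These shares do not depend on the library total, and the groups did not overlap in any class (exact two-sided permutation p = 0.1 each, adjusted p = 0.1). Within libraries, the log2 ratio of snRNA to pre-tRNA was −4.92 untreated and 1.00 after RppH, a difference of 5.92. That of snRNA to microRNA differed by 3.12, and that of pre-tRNA to microRNA by −2.80 (exact two-sided permutation p = 0.1 each, adjusted p = 0.1). Without the most abundant locus of each class, the share of snRNA rose by 21.1 instead of 55.9 percentage points and that of microRNA by 11.4 instead of 6.37, and the share of pre-tRNA, which fell by 62.3 points with all loci, fell by 32.5.

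**Figure D1:**
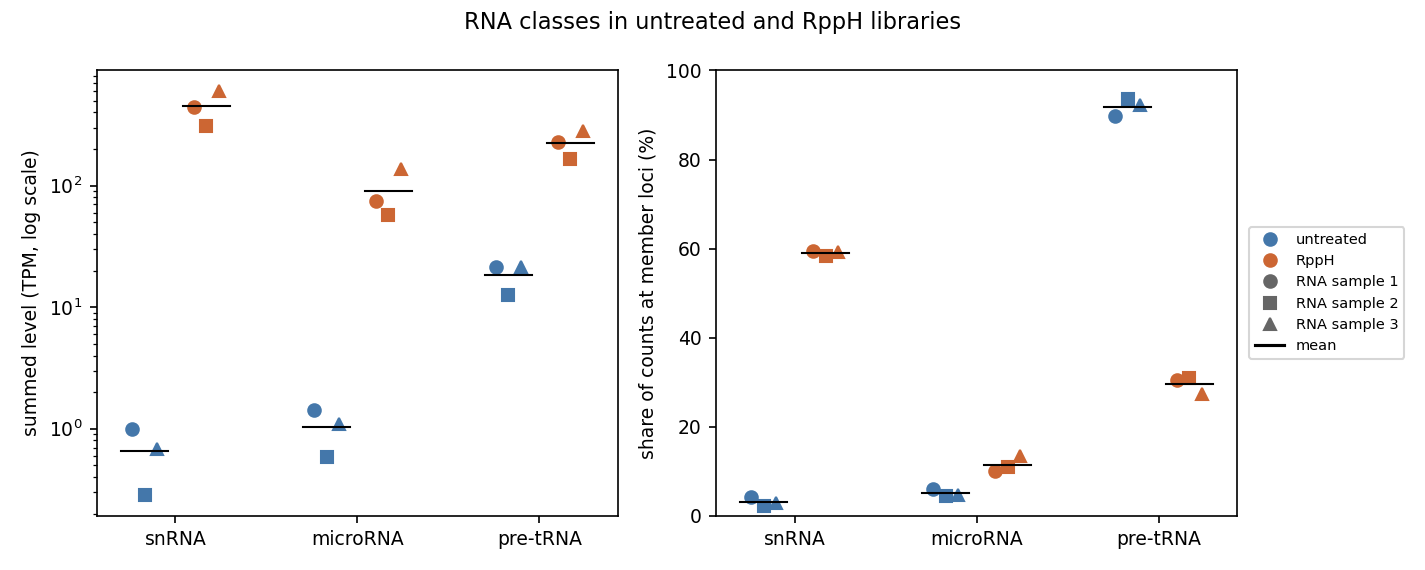
Summed level in TPM on a log axis (left) and share of the counts at the 324 loci in percent (right) of the 3 RNA classes, with 1 point per library, its shape giving the RNA sample, and a bar for the mean of 3 libraries. RppH libraries lie above untreated libraries in level for each class, while the share of pre-tRNA is 91.9% untreated and 29.6% after RppH.

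Single loci moved in the same direction. Of the 324 loci, 303 were higher after RppH and 0 lower (93.5% higher, edgeR quasi-likelihood test, Benjamini-Hochberg adjusted p under 0.05). None was lower at an unadjusted p under 0.05, and DESeq2 called 268 higher (82.7%) and 0 lower. This share is largely set by the minimum count, since 220 loci had no untreated count and had to reach 10 counts through RppH alone. The 14 loci just at the minimum held 140 RppH counts and 0 untreated counts, and the 22 loci just under it, with 9 counts each, held 176 and 22. All RppH libraries lay above all untreated libraries at 253 loci (78.1%). With the RNA sample as a block 135 loci were higher (41.7%) and 0 lower.

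Loci that also had untreated counts are less bound to that choice. There were 75 with at least 3 untreated counts, 71 of them with a higher mean after RppH, and 51 of the 75 were higher and 0 lower when tested alone (68%). Their log2 fold changes in the fit of all 324 loci ran from −1.13 to 9.58 with a median of 3.63.

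These folds take the library total as their base. Scaling to the typical locus, which sets a general rise to 0, shifted the log2 changes down by about 3.72 (median of ratios, resting on the 23 loci without a zero) or 3.35 (TMM). Relative to that shift, 63 loci were higher (19.4%) and 8 lower (2.47%) with the median of ratios, and 92 higher (28.4%) and 8 lower (2.47%) with TMM. Of the 75 loci with at least 3 untreated counts, 26 turned from a positive to a negative log2 change under TMM and 33 under the median of ratios, most of them tRNA genes (25 and 31 of 61).

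**Figure D2:**
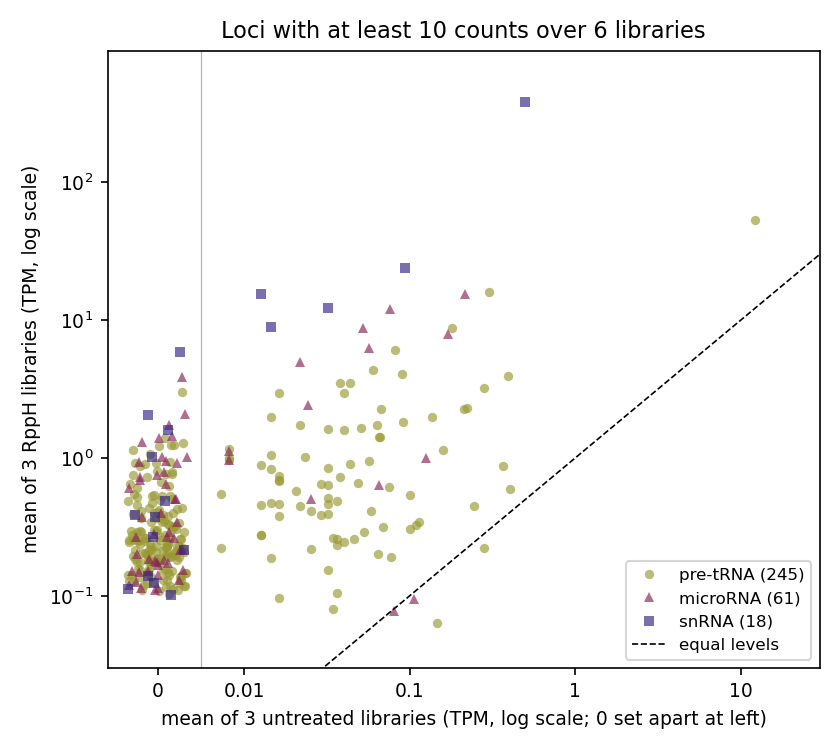
Mean TPM of the 3 RppH libraries against mean TPM of the 3 untreated libraries for the 324 loci, both on log axes, with loci without an untreated count set apart at the left and the dashed line marking equal levels. The 220 loci at the left had no untreated count, and 4 loci lie on the lower side of the line.

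The snRNA loci were nearly silent without RppH. U1, which pairs with the 5′ splice site, had 31, 13 and 16 counts over its 43 listed copies in untreated replicates 1 to 3 and 10990, 6839 and 18481 after RppH. U2, which pairs with the branch point, went from 10, 0 and 2 counts to 1104, 846 and 1488. U4, which holds U6 in check before splicing, had no untreated count and 132, 74 and 144 counts after RppH. U5, which aligns the exons, had no untreated count and 18, 3 and 28 after RppH.

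The untreated level was 0.133% of the RppH level for U1 and 0.268% for U2. For U4 and U5, whose 3 untreated libraries were at 0, the RppH level was higher by at least 155-fold and 21.7-fold respectively, with the 3 untreated libraries together set at a floor of 3 counts. The 4 types were called higher in edgeR in the fit that also held the anticodons (adjusted p at most 1.29e-07), with 3 of 3 RNA samples in that direction. U6, the snRNA that RNA polymerase III makes, had no locus among those listed, which the authors class as capped snRNA. The snRNA values therefore do not cover U6.

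By locus, 18 of 18 snRNA loci were called higher, against 93.5% of all loci tested, and 12 when blocked by RNA sample, namely 7 of 9 U1, 2 of 3 U2, 2 of 5 U4 and 1 of 1 U5 copies. The leading U1 copy lay on scaffold 1 (2523679 to 2523838, plus strand, assembly of the submitters) and had 27, 11 and 16 untreated counts against 10151, 6453 and 17088 after RppH. In log2 terms it rose by 9.58 (SE 0.78, adjusted p = 1.33e-08 in edgeR), with 3 of 3 RNA samples in that direction. The leading copy of U2 lay on the plus strand of scaffold 79 (315044 to 315239) and had 10, 0 and 1 untreated counts against 699, 394 and 1003. Its log2 fold change of 7.90 (SE 1.00, edgeR adjusted p = 5.70e-06) depended on untreated replicate 1 and was 10.35 without it and 7.25 without untreated replicate 2.

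The next copies by level were barely seen untreated. A U2 copy on the plus strand of scaffold 29 (734845 to 735040) was read once untreated, as 1 count in replicate 3, and 396, 450 and 477 times after RppH. U1 on scaffold 29 (739741 to 739898, plus strand) had 4 untreated counts, all in replicate 1, and 409, 140 and 539 after RppH. U1 on scaffold 1 at 2337806 to 2337965 (plus strand) had 2 untreated counts, both in replicate 2, and 223, 134 and 441 after RppH. The other 13 snRNA loci had none untreated, and their RppH levels were at least 4.42-fold to at least 233-fold higher. The value of 4.42 is what the minimum of 10 counts over the floor of 3 counts gives by itself. Copies of an snRNA can be near-identical, and the sources used here do not give the rule for reads that match several copies, so the value of a single copy is uncertain.

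Primary transcripts of microRNAs were also scarce without RppH, but less so than snRNA. Of 61 loci, 59 were called higher and 0 lower, against 93.5% of all loci, and 29 when blocked by RNA sample. By name these were 23 of 25 ccm-MIR loci and 36 of 36 ccm-IIM loci, and the authors list both kinds as interface-induced. No untreated count was found at 47 loci, 18 ccm-MIR and 29 ccm-IIM. Their RppH levels were at least 4.42-fold, again the value set by the minimum count, to at least 158-fold higher. The 11 loci with at least 3 untreated counts had log2 fold changes from −0.19 to 7.57, and 9 of them were called higher.

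The most abundant transcript, ccm-MIR12463b on scaffold 7 (1050575 to 1050710, plus strand), had 17, 4 and 4 untreated counts and 394, 199 and 794 after RppH. Next came ccm-IIM-27 on scaffold 29, with 0, 0 and 6 against 229, 214 and 642, and ccm-IIM-12a on scaffold 7, with 2, 5 and 0 against 193, 169 and 421. In each of these the untreated counts sat mainly in a single library. The untreated counts of ccm-IIM-70 on scaffold 190a (485233 to 485375, plus strand) were even, at 8, 6 and 5, against 174, 173 and 346 after RppH. This was a log2 gain of 5.51 (SE 0.78, adjusted p = 1.23e-05 in edgeR). ccm-MIR12481 on scaffold 110 (33486 to 33631, minus strand) had 3, 1 and 2 untreated counts and 192, 94 and 272 after RppH, a log2 fold change of 6.77 (SE 0.90, edgeR adjusted p = 7.52e-06). Both were higher in 3 of 3 RNA samples, and their groups did not overlap. ccm-IIM-83 and ccm-MIR12467 had 3 untreated counts each, and their ratios of pooled rates were 196 (95% counting interval 66.7 to 955) and 97.3 (32.8 to 475).

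At the other end stood ccm-MIR12497a and ccm-MIR12497b, which overlap on the plus strand of scaffold 13b (575639 to 575821 and 575715 to 575890). ccm-MIR12497a had 8, 4 and 1 untreated counts and 7, 0 and 1 after RppH. ccm-MIR12497b had 6, 1 and 2 untreated counts and 2, 1 and 4 after RppH. The groups overlapped in both, and the log2 fold changes of −0.19 (SE 1.20, edgeR adjusted p = 0.876) and −0.03 (SE 1.24, edgeR adjusted p = 0.984) turned sign when single libraries were left out. Further along the same strand, ccm-MIR12497d (582372 to 582537), chosen after its values were seen, had no untreated count and 44, 36 and 71 after RppH, at least 66.8-fold higher.

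A pair of microRNA transcripts had small but called gains. ccm-IIM-50 on scaffold 110 had 10, 1 and 3 untreated counts and 18, 20 and 52 after RppH, without overlap in TPM. Its log2 fold change of 2.98 (edgeR adjusted p = 0.00282) was 4.00 without untreated replicate 1 and −0.42 or −0.60 under TMM or median-of-ratios scaling, and blocking by RNA sample gave an adjusted p of 0.0794. ccm-IIM-29 on scaffold 35 had 0, 2 and 4 untreated counts and 14, 3 and 43 after RppH, and its groups overlapped. Its log2 fold change of 3.42 (edgeR adjusted p = 0.00482) was −0.38 under median-of-ratios scaling, and its adjusted p was 0.113 with the block, 0.0574 without RppH replicate 1 and 0.0925 without both libraries of RNA sample 1.

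Pre-tRNA was the class with the most untreated counts, and a single gene held most of them. This gene for alanine tRNA with anticodon TGC lay on scaffold 16 (2759656 to 2759755, minus strand). It had 584, 352 and 397 untreated counts and 1509, 822 and 2363 after RppH, a mean of 12.3 ± 4.03 against 52.9 ± 19.0 TPM (SD, n = 3 each). RppH libraries lay above untreated libraries, in 3 of 3 RNA samples. The log2 fold change of 2.11 (SE 0.61, edgeR adjusted p = 0.00347, and 0.000337 with the block) turned to −1.28 under TMM and −1.63 under median-of-ratios scaling. Without both libraries of RNA sample 1 its adjusted p was 0.0718.

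The alanine gene made up 66.5%, 60.7% and 70.4% of the member pre-tRNA counts in untreated replicates 1 to 3 (Wilson 95% intervals 63.3 to 69.6, 56.7 to 64.6 and 66.5 to 74.0). After RppH it made up 24.1%, 20.01% and 25.4% (23.0 to 25.2, 18.8 to 21.3 and 24.5 to 26.3). The groups did not overlap (exact two-sided permutation p = 0.1). Over all listed genes other than those of alanine TGC, pre-tRNA levels were 6.73 ± 1.15 TPM in untreated and 181 ± 40.0 TPM in RppH libraries (SD, n = 3 each). The ratio was 27.0, against 12.4 over all listed genes, and 23.9, 25.5 and 31.5 by RNA sample.

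Summed over all listed genes of an anticodon, pre-tRNA of nearly all anticodons was higher after RppH. The table lists 51 anticodons, 48 of which reached 10 counts and were tested together with the 4 snRNA types and the microRNA total. Of these 53, 52 were higher and 0 lower (98.1%, edgeR, and 52 higher and 0 lower by DESeq2), and 49 were higher with the RNA sample as a block (92.5%). The exception was valine CAC, with 6, 0 and 9 untreated counts and 6, 2 and 6 after RppH. The share called higher is partly set by the minimum count. U4, U5 and 15 of the 48 anticodons had no untreated count and reached 10 counts through RppH alone. Scaling to the typical feature shifted the log2 changes down by about 4.27 (median of ratios) or 4.62 (TMM). It gave 18 higher (34%) and 4 lower (7.55%) with the former, and 13 higher (24.5%) and 8 lower (15.1%) with the latter.

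The 5 anticodons with the most counts were alanine TGC, serine AGA, aspartate GTC, asparagine GTT and arginine CCT. Alanine TGC rose by a log2 of 2.12 (SE 0.57, edgeR adjusted p = 0.000302), which turned to −2.56 under TMM and −2.19 under median-of-ratios scaling. Serine AGA had 17, 13 and 12 untreated counts and 527, 444 and 824 after RppH, a log2 fold change of 5.75 (SE 0.67, edgeR adjusted p = 4.30e-15). Asparagine GTT had 19, 13 and 13 against 360, 251 and 454 (log2 4.91, SE 0.62, edgeR adjusted p = 2.41e-13). These gains, like those that follow, were seen in 3 of 3 RNA samples.

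Aspartate GTC had 44, 9 and 11 untreated counts against 559, 335 and 797, and its log2 fold change of 5.09 (SE 0.64, edgeR adjusted p = 2.09e-13) was 6.03 without untreated replicate 1. Arginine CCT had 2, 13 and 0 against 223, 162 and 412, and its log2 fold change of 6.13 (SE 0.66, edgeR adjusted p = 1.33e-16) was 8.09 without untreated replicate 2.

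The untreated level as a percentage of the RppH level separated the anticodons widely. It was 102 for valine CAC, 23.0 for alanine TGC, 17.8 for threonine AGT, 16.8 for glutamine TTG, 11.8 for glycine TCC and 11.3 for threonine TGT. It lay between 5 and 10 for 7 anticodons, between 1 and 5 for 16, above 0 and up to 1 for 4, and at 0 for 15. The values above 10 rested on 4 untreated counts for threonine TGT, 12 for threonine AGT and 15 for valine CAC, against 41 for glycine TCC, 64 for glutamine TTG and 1333 for alanine TGC. With the block, threonine AGT and threonine TGT were not called (edgeR adjusted p = 0.0687 and 0.0704), nor was the suppressor anticodon TTA (0.108).

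Among the 15 anticodons without an untreated count, leucine AAG had the highest level after RppH, with 123, 95 and 198 counts, at least 184-fold higher. Histidine ATG, from a single gene on scaffold 240, had 88, 57 and 120 counts, at least 117-fold higher. Valine AAC had 55, 61 and 88 counts, at least 90.2-fold higher, while valine CAC did not differ beyond its spread. Arginine TCG was higher by at least 65.4-fold and leucine CAA by at least 53.5-fold. The lowest of the 15, the suppressor anticodon TTA, had 7, 0 and 10 counts after RppH, and its groups overlapped at 0. Its RppH level was at least 7.52-fold higher, and that of alanine CGC at least 10.6-fold. Such sparse anticodons cannot be ranked below those with some untreated counts.

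Grouped by amino acid, leucine stood out for its lack of untreated counts. Its 6 anticodons together had 3 untreated counts, all in replicate 1, and 1031 after RppH, and 4 of the 6 had none untreated. Proline had 3 against 176, and histidine 4 against 443. Tryptophan had none untreated and 38 after RppH. By contrast, lysine had 120 untreated counts against 1274, glutamate 86 against 1144 and glutamine 83 against 541. These sums were not tested.

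**Figure D3:**
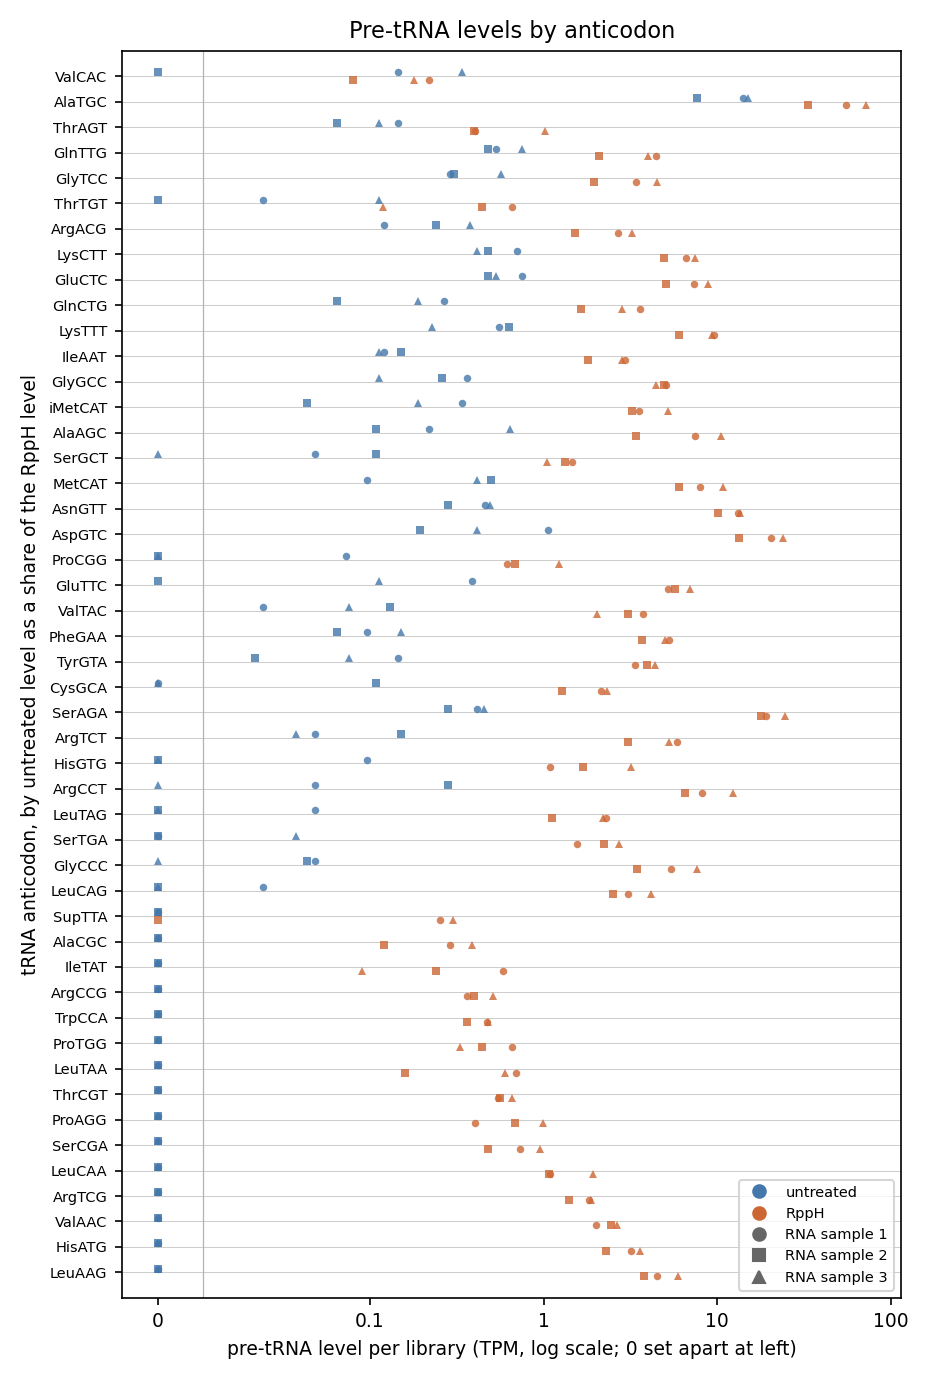
Pre-tRNA level in TPM on a log axis for the 48 tested anticodons, ordered by untreated level as a percentage of the RppH level, with 1 point per library, 0 set apart at the left, and point shape giving the RNA sample. Valine CAC at the top overlaps between treatments, 15 anticodons at the bottom have no untreated count, and alanine TGC, glutamine TTG and valine CAC are among those lower after RppH when scaled to the typical feature.

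The composition of pre-tRNA differed between the treatments. As shares of pre-tRNA counts, which do not depend on the library total, 19 of 48 anticodons were higher (39.6%) and 3 lower (6.25%) after RppH in edgeR, while blocking by RNA sample gave 14 higher (29.2%) and 1 lower (2.08%). TMM scaling of these shares gave 16 higher (33.3%) and 5 lower (10.4%). Of the 48 anticodons, 15 had no untreated count, so that their shares could only rise. Alanine TGC went from 63.7% ± 5.08 to 22.2% ± 2.79 (SD, n = 3 each), a log2 change of −1.52 (SE 0.12, edgeR adjusted p = 4.04e-05), lower in 3 of 3 RNA samples. Glutamine TTG changed by −1.07 and valine CAC by −3.35 (edgeR adjusted p = 0.0190 and 0.0145), and neither was called with the block (0.115 and 0.138). Shares add up to 100%, so a fall of alanine TGC lifts the others. Without both libraries of RNA sample 3 the calls were 8 higher and 1 lower, and 1 was lower without RppH replicate 2 or without untreated replicate 3.

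With the alanine gene taken out, 9 anticodons had a higher share (18.8%) and 7 a lower share (14.6%) after RppH in edgeR. The fit with the block left 3 higher (6.25%) and 1 lower (2.08%). Serine AGA rose from 5.31%, 5.16% and 6.52% of the remaining pre-tRNA counts to 10.3%, 12.7% and 11.2%, a log2 change of 1.03 (SE 0.19, edgeR adjusted p = 0.00735, and 0.0146 with the block). Leucine AAG rose from 0 to 2.61% ± 0.171 and histidine ATG from 0 to 1.66% ± 0.0538 (SD, n = 3 each), and both kept their call with the block (edgeR adjusted p = 0.00804 and 0.0427). Glycine CCC rose from 0.473% ± 0.418 to 2.95% ± 0.513 (SD, n = 3 each, edgeR adjusted p = 0.0122), but its adjusted p was 0.0722 with the block. The other 5 that rose were leucine CAG, leucine CAA, valine AAC, arginine TCG and serine TGA, with adjusted p from 0.0722 to 0.251 with the block. Leucine AAG, histidine ATG, leucine CAA, valine AAC and arginine TCG had no untreated count, so that their shares could only rise.

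Among the shares that fell, glutamine TTG kept its call with the block. It went from 6.88%, 8.73% and 10.9% to 2.39%, 1.49% and 1.82% (log2 change −2.17, SE 0.31, edgeR adjusted p = 0.00584, and 0.00324 with the block). Glutamate CTC fell from 8.68% ± 1.04 to 3.87% ± 0.206 and lysine CTT from 7.92% ± 1.69 to 3.48% ± 0.101 (SD, n = 3 each), with edgeR adjusted p of 0.00735 each, and 0.0715 and 0.0722 with the block. The other 4 were valine CAC (log2 change −4.48), threonine AGT (−2.24), glycine TCC (−1.65) and arginine ACG (−1.39), with adjusted p from 0.0722 to 0.244 with the block. These calls were thin: 0 higher and 0 lower were left without RppH replicate 2, 5 and 5 without RppH replicate 3, and at most 1 in either direction without any 1 of the 3 RNA samples. A single gene held 49 of the 67 untreated member counts of glutamate CTC and 41 of the 57 of lysine CTT. The largest gene held 31 of 62 for glutamine TTG, 26 of 26 for arginine ACG and 15 of 37 for glycine TCC. Valine CAC and threonine AGT had 1 member gene each. That of threonine AGT held 3 of the 12 untreated counts of its anticodon and was itself called higher (log2 3.99, relative to the library total).

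Most anticodons with more than 1 member gene had all of those called higher, and some also held member genes that were not. Of the 245 member tRNA genes, 226 were called higher and 0 lower, against 93.5% of all loci, and 94 when blocked by RNA sample. No untreated count was found at 160 of the 245, which reached the minimum through RppH alone. Listed genes below the minimum were not tested. Of the 38 anticodons with more than 1 member gene, 27 had all of them called higher. The 19 uncalled genes held 250 of the 756 untreated counts outside the alanine gene (33.1%) but 469 of the 15935 RppH counts (2.94%). Genes with a small gain for their untreated counts are those left uncalled, so this contrast follows from the choice and is no separate result. The 10 genes with the most untreated counts outside the alanine gene, picked on those counts, held 42.7% of the untreated and 21.1% of the RppH counts. Untreated counts came from 110 of 496 listed genes and RppH counts from 475.

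Among tRNA genes with at least 3 untreated counts, those of glutamate CTC showed the widest spread within an anticodon. The gene on scaffold 10 (915554 to 915642, minus strand) had 29, 15 and 5 untreated counts and 17, 9 and 27 after RppH, with overlapping groups. The log2 change of 0.54 (SE 0.72, adjusted p = 0.467 in edgeR) became −0.060 without both libraries of RNA sample 3, and −2.94 or −3.25 under TMM or median-of-ratios scaling. The gene of the same anticodon on scaffold 9 (1289986 to 1290083, plus strand) had 0, 0 and 3 untreated counts and 100, 69 and 139 after RppH, a ratio of pooled rates of 136 (95% counting interval 46.2 to 664).

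Genes that were not called were also found in other anticodons, and again in glutamate CTC. The glutamine TTG gene on scaffold 545 (42020 to 42113, minus strand) had 11, 11 and 9 untreated counts and 9, 1 and 10 after RppH, with a log2 fold change of −0.31 (SE 0.83, edgeR adjusted p = 0.721). The arginine ACG gene on scaffold 9 (2224656 to 2224752, minus strand) had 5, 11 and 10 against 14, 6 and 20 (log2 0.90, SE 0.76, edgeR adjusted p = 0.254, and −2.45 or −2.92 under TMM or median-of-ratios scaling). The groups overlapped in both, as they did for the valine CAC gene on scaffold 14b, with 4, 0 and 9 untreated counts and 3, 2 and 0 after RppH, and for the glutamate CTC gene on scaffold 155, with 0, 3 and 1 against 0, 0 and 8 (log2 1.20, and −2.22 or −2.78 under the same scalings). The lysine CTT gene on scaffold 204 (423634 to 423731, plus strand), chosen after its values were seen, had 25, 7 and 9 against 37, 10 and 29 and overlapped as well (log2 1.25, edgeR adjusted p = 0.111, and −2.14 or −2.38 under TMM or median-of-ratios scaling).

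Strong gains were found in several leading genes. The serine AGA gene on scaffold 9 (2215136 to 2215245, minus strand) had 17, 7 and 9 untreated counts and 398, 347 and 649 after RppH, a log2 fold change of 5.72 (SE 0.78, edgeR adjusted p = 8.47e-06) in 3 of 3 RNA samples. The asparagine GTT gene on scaffold 90 had 10, 12 and 1 against 259, 199 and 296. The arginine CCT gene on scaffold 126 had 2, 9 and 0 against 150, 115 and 272, and the aspartate GTC gene on scaffold 321a had 5, 1 and 1 against 116, 61 and 214. All 18 member genes of aspartate GTC were called higher, as were all 9 of leucine AAG and all 9 of asparagine GTT, against 93.5% of all loci. Of these genes, 12, 9 and 3 respectively had no untreated count and reached the minimum through RppH alone. A second serine AGA gene, on scaffold 83, had 0, 6 and 0 untreated counts against 84, 77 and 144, and a glutamate TTC gene on scaffold 34 had 5, 0 and 0 against 60, 87 and 109. Untreated counts of the last 2 came from a single library each. Copies of a tRNA gene can be near-identical, so a split between genes of an anticodon is less certain than their sum.

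**Figure D4:**
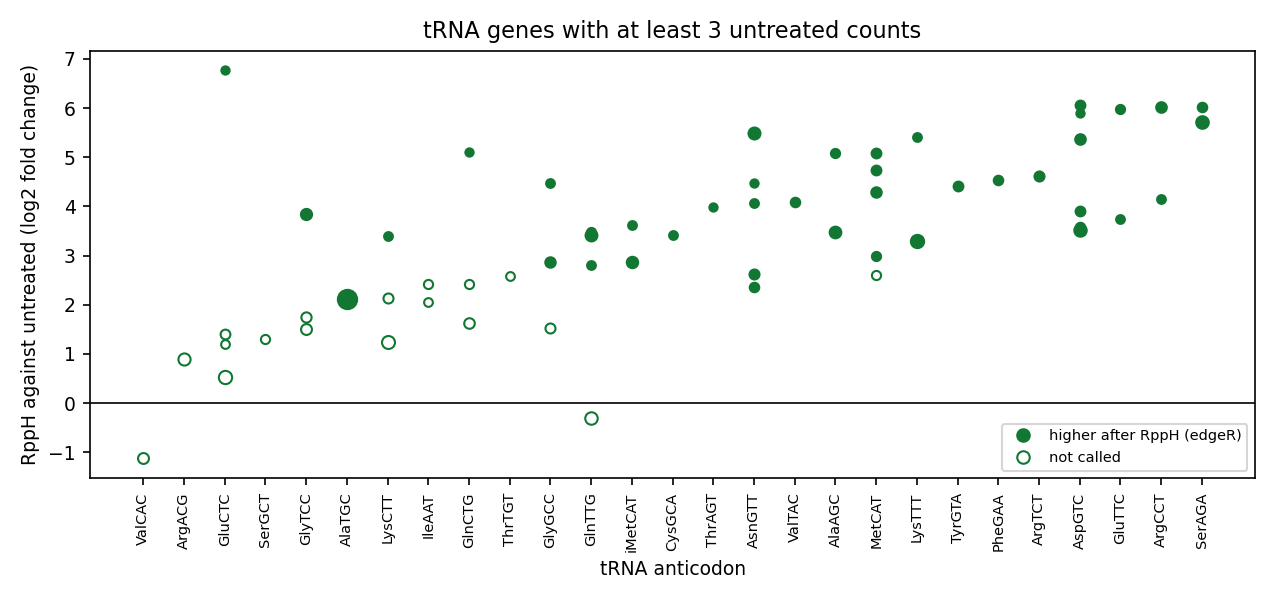
Log2 fold change of RppH against untreated (relative to the library total) for the 61 tRNA genes with at least 3 untreated counts, 1 point per gene, by anticodon, with larger points for more untreated counts and filled points for genes called higher by edgeR. Glutamate CTC spans 0.54 to 6.77, and scaling to the typical locus lowers the points by about 3.72 or 3.35, which puts the alanine TGC gene, among others, below 0.

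Pre-tRNA forms were on average slightly longer after RppH. The mean length of pre-tRNA counts was 85.5, 86.4 and 86.0 nt in untreated replicates 1 to 3 and 87.9, 88.6 and 88.2 nt after RppH, without overlap. The difference was 2.31 nt (exact two-sided permutation p = 0.1, adjusted p = 0.1 over 2 measures). It was 3.64 nt without the alanine gene, 2.37 nt with equal weight per gene and 1.14 nt over the 17 genes counted in all 6 libraries with equal weight. Of the 61 genes with at least 3 untreated counts, 37 were longer and 24 shorter after RppH, with a median difference of 0.326 nt. In the alanine gene on scaffold 16, forms of 84 nt or more held 76.0%, 86.1% and 85.1% of the untreated counts and 89.3%, 91.2% and 89.4% of the RppH counts, without overlap. Yet the mean length in this gene did not rise, at 86.2 nt untreated and 86.1 nt after RppH. Forms of 90 nt or more held 1.58% of its pooled untreated counts and 1.24% of its pooled RppH counts. Forms of this gene that began at the leading 5′ end rose unequally, which was not tested. The 84-nt form had 1, 1 and 2 untreated counts and 63, 19 and 94 after RppH, whereas the 88-nt form had 162, 101 and 95 against 317, 116 and 333, a ratio of mean TPM of 2.70. That ratio was 10.8 for the 85-nt form, 7.66 for the 86-nt form and 4.07 for the 87-nt form. Shorter forms did not continue this order, with 2.85, 2.47 and 2.19 for 83, 82 and 81 nt. The 80-nt form, with 8 untreated and 5 RppH counts, had 0.894. Forms of 89 and 90 nt had 2.71 and 2.37.

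The 5′ ends stayed mostly in place. The share of pre-tRNA counts that began at the leading 5′ end of their gene was 94.5%, 96.6% and 94.0% untreated and 92.7%, 92.2% and 92.7% after RppH (exact two-sided permutation p = 0.1, adjusted p = 0.1). The difference of −2.52 percentage points turned to 0.277 without the alanine gene (exact p = 1).

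In 2 genes, chosen after their values were seen, longer forms that began at the same 5′ base were found only after RppH at this depth. For the lysine TTT gene on scaffold 21b (2692984 to 2693076, plus strand), forms of at least 84 nt were 0 of 19, 24 and 5 untreated counts, which over the 48 counts allows a share of up to 6.25%. After RppH they were 71 of 126, 38 of 64 and 44 of 155 counts, or 56.3%, 59.4% and 28.4%. The main long form had 86 nt, with 49, 26 and 31 counts after RppH. For the alanine AGC gene on scaffold 77 (261129 to 261223, minus strand), forms of at least 82 nt were 0 of 20 untreated counts, which allows a share of up to 15%. After RppH they were 32 of 44, 15 of 27 and 75 of 136 counts, and 19 of the 20 untreated counts were of the 81-nt form. As these forms share a 5′ end with the short ones, they differ at the 3′ end. Intervals and limits cover counting error only.

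**Figure D5:**
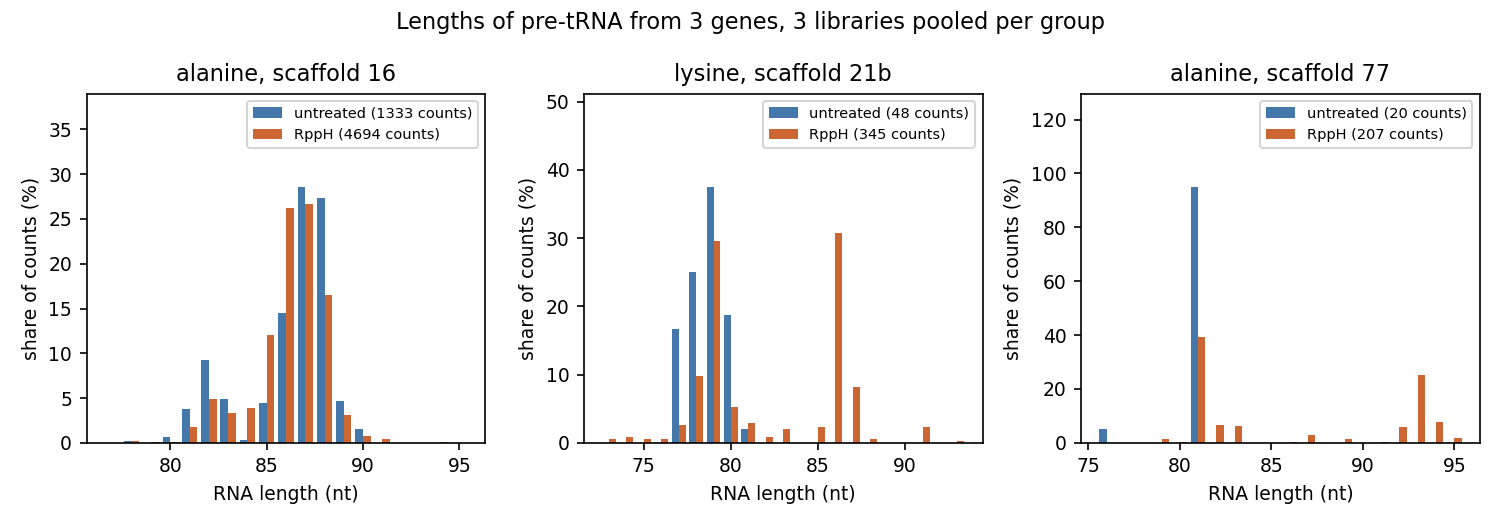
Share of counts in percent by RNA length in nt for 3 tRNA genes, pooled over the 3 libraries of each treatment. Forms of at least 84 nt of the lysine gene are 0 of 48 untreated and 153 of 345 RppH counts, those of at least 82 nt of the alanine gene on scaffold 77 are 0 of 20 and 122 of 207, and forms of at least 84 nt of the alanine gene on scaffold 16 are 81.4% of 1333 untreated and 89.7% of 4694 RppH counts. The mean length in the alanine gene on scaffold 16 is 86.2 nt untreated and 86.1 nt after RppH.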

How the data were processed

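The authors' deposited table gives raw counts of full-length transcripts per interval and library and TPM by the authors, per the file headers. TPM was the count divided by a constant of the library (largest relative deviation 3.1e-15), taken as the library total. The sources used here do not say what that total counts. cutadapt, Bowtie2, SAMtools and bedtools were used, per the submitters' processing notes, without versions.

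Counts were tested with edgeR 4.0.16 (R 4.3.3; quasi-likelihood, two-sided, Benjamini-Hochberg at 0.05), with library totals as offsets and no further factor, and DESeq2 1.42.0 as an alternative. The SE is the absolute log2 fold change divided by the square root of the F statistic, not an SE that edgeR estimates. Scripts were tested on simulated data. Ratios of classes used a pseudocount of 0.5 counts, and floors 3 counts. Alternatives were other scalings, minimum counts of 1 and 20, at least 3 untreated counts, unsummed pre-tRNA intervals, all 9 libraries, and libraries left out. Members and lists were chosen with earlier results of these data known.

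Named per class were the 5 loci of highest mean TPM, the 5 largest and 5 smallest changes among loci with at least 3 untreated counts, and uncalled loci where 5 or fewer. For anticodons these were the 5 with the highest counts and up to 5 per direction of changed share.

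The pairing comes from the labels, since libraries of a number share their RNA. The deviations of paired libraries from their group means correlated at −0.04, −0.09 and 0.15 over 110 loci with at least 50 counts. An alternative fit took the RNA sample as a block, and 3 pairs allow no exact p below 0.25. Positions count from 1 on the scaffolds of the submitters' assembly. No genome sequence was used here.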

Additional observations from a re-analysis of the deposited data

Results flagged for a closer look

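The 3 libraries of the same RNA treated with decapping enzyme (Dcp), which the comparison of RppH with untreated RNA does not use, also held signal at the member loci above the untreated libraries. Their mean was 399.6 TPM for snRNA, against an untreated maximum of 0.992 TPM. It was 17.9 TPM for microRNA transcripts, against 1.43 TPM, and 33.8 TPM for pre-tRNA, against 21.3 TPM. Each of the 3 Dcp libraries lay above the untreated maximum in each class, with a lowest value of 27.4 TPM for pre-tRNA and 6.96 TPM for microRNA. These differences were not tested here.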

How the results depend on the processing

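Of the 303 loci called higher and 0 lower, TMM scaling left 92 and 8, the median of ratios 63 and 8, the RNA sample as a block 135 and 0, and the 75 loci with at least 3 untreated counts 51 and 0. For snRNA (18) these 4 gave 10, 9, 12 and 3, for pre-tRNA (226) 54, 31, 94 and 39, and for microRNA (59) 28, 23, 29 and 9. Of 52 RNA types and anticodons higher and 0 lower, TMM left 13 and 8 and the median of ratios 18 and 4. Shares of pre-tRNA were 19 higher and 3 lower. They were 9 and 7 without the most abundant gene, 5 lower under TMM and 1 lower with the replicate block. Leaving out libraries gave 8 to 26 higher and 1 to 3 lower. Outside that gene the 9 higher and 7 lower became 3 and 1 with the block, and 0 to 11 and 0 to 6 when libraries were left out.

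Log2 changes turned negative under TMM and median of ratios for, among others, ccm-IIM-50 (−0.42, −0.60), the alanine gene (−1.28, −1.63), the glutamate CTC genes on scaffolds 10 (−2.94, −3.25) and 155 (−2.22, −2.78), the arginine ACG gene (−2.45, −2.92), alanine TGC (−2.56, −2.19), valine CAC (−4.38, −4.03) and glutamine TTG (−2.05, −1.70). ccm-IIM-29 turned under the median of ratios only (−0.38). ccm-MIR12497b turned to 0.10 with the block. The 5′-end share difference turned to 0.277 without the alanine gene. The cause was not tested.

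With libraries left out, uncalled log2 changes crossed 0 and ran from −2.48 to 0.52 for ccm-MIR12497a, −0.51 to 0.79 for ccm-MIR12497b, −2.02 to 0.95 for the valine CAC gene on scaffold 14b and −0.70 to 0.16 for the glutamine TTG gene on scaffold 545. They ran from −0.060 to 1.18 and −3.37 to 2.70 for the glutamate CTC genes on scaffolds 10 and 155, and from −0.50 to 1.17 for valine CAC as a whole. Untreated depth, with few counts at most loci, limits these values.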
